A study of Saccharomyces cerevisiae with 3 samples.

Results

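The nuclear genes of the tricarboxylic acid (TCA) cycle and of respiration are described here in replicatively ageing budding yeast. The set held 43 genes of 5792 gene features on each array, picked by gene symbol and not by any measured value. They fall into 6 role groups, which are 8 genes of the TCA cycle, 3 NADH dehydrogenases, 4 genes of complex II, 9 of complex III, 7 of complex IV and 12 of ATP synthase. Apart from the citrate synthase gene CIT3, genes of the first steps of the cycle lie outside the set. So do cytochrome c and the subunits encoded by mitochondrial DNA, and these outside genes are given for context.

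All cells were BY4742, a haploid alpha strain in common laboratory use with deletions of several marker genes, grown in the rich glucose medium YPD at 30 °C. Cells were tagged with biotin, so that old mother cells could be pulled out of the culture on biotin-binding magnetic beads, and were collected at the 4th, 7th and 11th generation. Each of the 3 two-colour arrays compared Cy3-labelled RNA of 1 of these older ages with Cy5-labelled RNA of 1st generation cells. How the 1st generation cells were collected, whether 1 RNA preparation served all 3 arrays and how pure the bead fractions were is not given in the sources used here. There was 1 array per generation and no dye swap, so no value against the 1st generation has a replicate error, and dye bias of a probe and age cannot be told apart.

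The TCA cycle in the mitochondrial matrix oxidises acetyl groups and passes the electrons to NADH and, through succinate dehydrogenase, to coenzyme Q. Budding yeast has no proton-pumping complex I. Single-subunit NADH dehydrogenases on either face of the inner membrane feed coenzyme Q instead, complex III (the cytochrome bc1 complex) hands the electrons to cytochrome c, complex IV (cytochrome c oxidase) reduces oxygen, and ATP synthase uses the proton gradient. Most of these genes are repressed by glucose and are activated by the Hap2/3/4/5 complex when glucose runs low, so cells growing in YPD ferment and respire little.

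Values are log2 ratios of older over 1st generation signal, normalised within each print block of the array, so 1 is a 2-fold higher and -1 a 2-fold lower level in the older cells. A feature entered a comparison when its raw signal exceeded that of the blank spots in at least 1 channel. Median raw signals lay between 161 and 177 in Cy5 and between 496 and 591 in Cy3, and 5567 to 5703 features were above the blanks. The SD of the 8 spots for the actin gene ACT1 was 0.18 at the 4th generation, 0.18 at the 7th and 0.62 at the 11th, and 0.23 on the last array without its lowest spot. The SD of the 7th minus 4th generation difference over features, which holds real differences too, was 0.17. The mating type matched the label, since the 4 alpha-specific genes had a median Cy5 signal at or above the 92.5th percentile of features and the 6 a-specific genes one at or below the 23.8th. Of 3 genes deleted in the strain, LEU2 was not above the blanks in either channel of any array, but the Cy5 signal of LYS2 and URA3 exceeded the blanks on every array, at up to 38.2 and 41.6 where the limits were 26.4 to 32.2. The 9 daughter-specific genes, which are transcribed in newborn cells, had a median log2 ratio of -0.55, -0.42 and -1.03 and were below 0 on every array. Their summed raw signal went from 10163 through 8654 to 5611 in the Cy3 channel and from 6356 through 5853 to 5589 in Cy5. They thus shifted between the 7th and the 11th generation as several respiratory genes did, and their part in the values below was not tested. In RNA of whole cell populations, fewer cells of a kind and less RNA per cell cannot be told apart.

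With normalisation within print blocks, 3 of the 43 genes passed 2-fold against the 1st generation on any array. At the 4th generation 1 of 43 was at least 2-fold lower (ATP5) and 0 were higher, while 2.49% of all features were that much lower. No gene of 42 above the blanks passed 2-fold at the 7th generation, where 4.35% of all features did in either direction. At the 11th generation QCR2 and COX4 were at least 2-fold lower and 0 of 43 were higher, against 3.84% of features lower and 5.75% higher. The median over the set was -0.03, -0.04 and -0.00 on the 3 arrays, and that over all features 0.01, 0.01 and 0.03. The SD over genes of the set was 0.40, 0.34 and 0.56, and that of all features, 0.49, 0.49 and 0.65, was likewise widest at the 11th generation. These counts depend on the normalisation: 2-fold was passed by 9, 8 and 12 genes at the 3 ages in the authors' deposited table. At the 11th generation whole-array loess and median centring each gave 3 genes higher and 4 lower. The sign of the ratio changed under at least 1 other way of processing for 23 of 43 genes at the 4th generation, 20 at the 7th and 8 at the 11th, so ratios near 0 carry no direction.

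**Figure D1:**
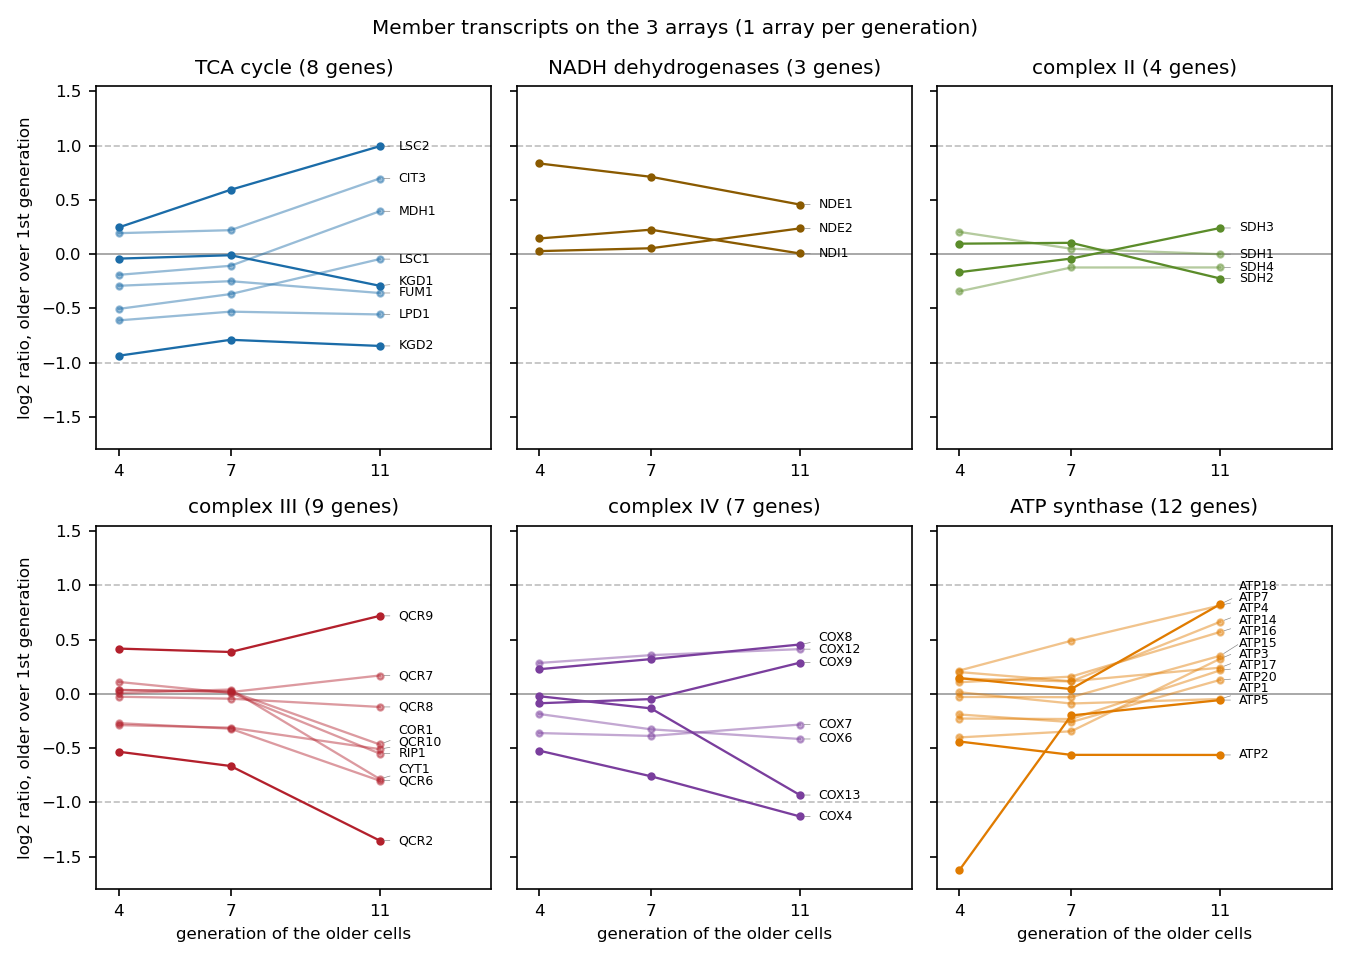
Log2 ratio of older over 1st generation signal (y axis) against the generation of the older cells (x axis) for the 43 genes, 1 panel per role group, 1 point per array and dashed lines at 2-fold. Most complex III points are lower at the 11th than at the 7th generation and most ATP synthase points higher, and the single point far below -1 at the 4th generation is ATP5 at -1.63.

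The 4th and 7th generation were close to each other. Between them 1 of 42 genes (ATP5) differed by at least 2-fold upward, as did 0.162% of all features. From the 7th to the 11th generation 0 of 42 differed 2-fold, against 2.48% of all features in either direction, and 23 of 42 genes were above 0, against 50.4% of all features. From the 4th to the 11th, the only difference past 2-fold was again that of ATP5, upward, beside 2.66% of features higher and 0.903% lower. In that span 25 of 43 genes were above 0, against 51.5% of features, and 18 were below, against 48.5%. All 3 ratios were taken against 1st generation cells, so probe effects common to the arrays drop out of these differences. Any difference between the 1st generation sides of the arrays stays in them.

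The role groups parted in opposite directions over that span. Complex III had a median 11th minus 4th difference of -0.50 with 7 of 9 genes below 0, and ATP synthase one of 0.45 with 10 of 12 above 0. The TCA cycle had a median of 0.27 with 6 of 8 above 0. Complex IV was at 0.08, complex II at 0.01 and the NADH dehydrogenases at -0.14, and the median of all features was 0.01 with an SD over features of 0.44.

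**Figure D2:**
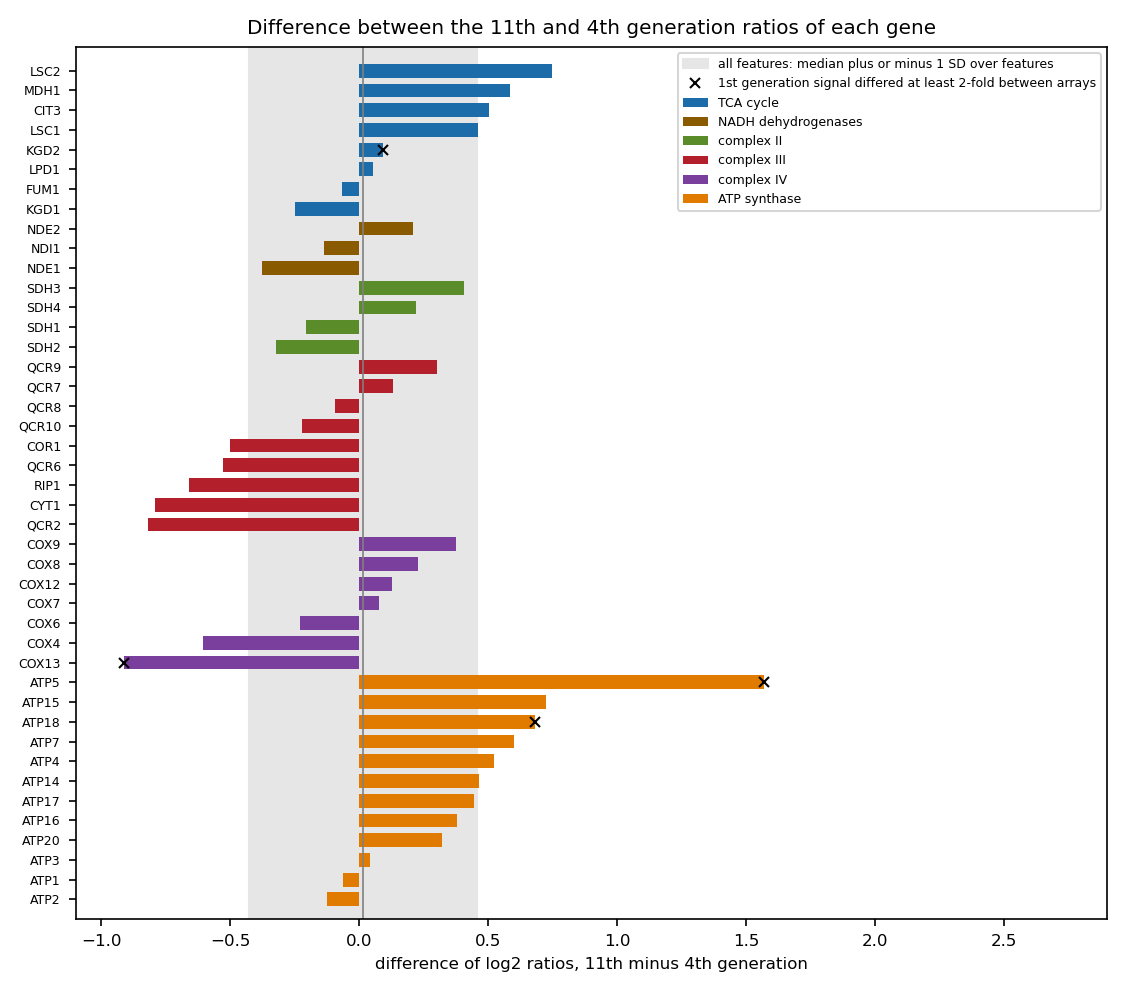
Difference of log2 ratios, 11th minus 4th generation (x axis), for each of the 43 genes, coloured by role group, with the grey band giving the median plus or minus 1 SD over all features and crosses marking genes with Cy5 signals at least 2-fold apart between arrays. ATP5 at 1.57 lies far from the rest, and 5 genes of complex III lie to the left of the band.

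A trend with generation was fitted over the 3 arrays with limma, which leaves 1 residual degree of freedom per feature, so that the residual is the departure from a straight line and not a replicate spread. None of the 42 genes tested passed a Benjamini-Hochberg adjusted p of 0.05 over 5546 features, against 0.541% of all features, and the lowest adjusted p was 0.056 for LSC2. At an unadjusted p under 0.05, 13 genes sloped upward and 8 downward, beside 17.2% and 13.1% of all features. The upward 13 were 7 of 12 ATP synthase genes, 4 of 8 TCA cycle genes, 1 of complex II and 1 of complex IV. The downward 8 were 5 of 9 complex III genes, 2 of complex IV and 1 NADH dehydrogenase. No direction is therefore called for any single gene of the set, and differences are given as measured on single arrays.

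A ratio can also move because its 1st generation side moves. Folds between arrays were taken from the Cy5 signal after background correction with an offset of 50, with each array brought to its median. The offset can make these folds smaller than raw ones, most of all for dim probes. By that measure the Cy5 signal differed at least 2-fold for 4 of the 43 genes, KGD2, COX13, ATP5 and ATP18, against 2.28% of all features. For the other 39 genes it differed by at most 1.26-fold, with a median of 1.11-fold over the set. The raw signals of these 4 genes are therefore given with their ratios.

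**Figure D3:**
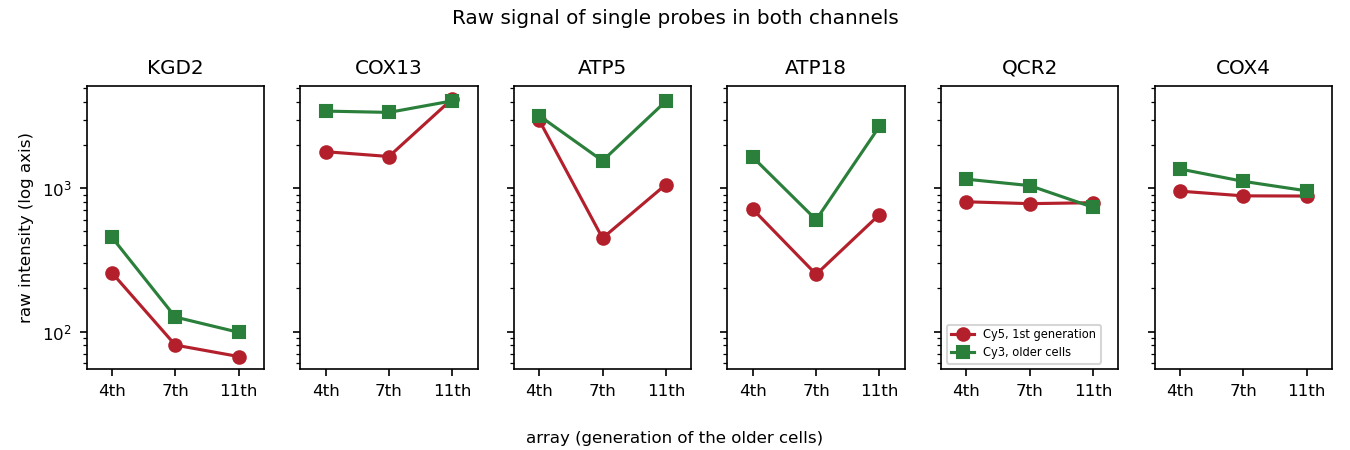
Raw intensity on a log axis (y axis) of single probes on the 3 arrays (x axis), with circles for Cy5 (1st generation) and squares for Cy3 (older cells). The Cy5 circles of KGD2, COX13, ATP5 and ATP18 move between arrays, while those of QCR2 and COX4 stay level and their Cy3 squares come down.

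Within the TCA cycle, both subunits of succinyl-CoA ligase, which makes ATP from succinyl-CoA, sat higher at the 11th generation than at the 4th. LSC2, its beta subunit, had log2 ratios of 0.25, 0.59 and 0.99 along the series from the 4th through the 7th to the 11th generation. Its raw Cy3 signal was 888, 1168 and 2095 while its Cy5 signal was 215, 206 and 236, so the older side differed and the 1st generation side hardly did. The 11th generation level was 1.99-fold that of the 1st, and the limma slope was 0.11 per generation (95% interval 0.06 to 0.16, adjusted p = 0.056). LSC1, the alpha subunit, was at -0.51, -0.37 and -0.05, which ends at the 1st generation level rather than above it.

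The subunits of the 2-oxoglutarate dehydrogenase complex, the step before, stayed at or below the 1st generation. KGD1, the E1 enzyme, was at -0.04, -0.01 and -0.29. LPD1, the E3 lipoamide dehydrogenase that pyruvate dehydrogenase and the glycine cleavage system also use, was at -0.61, -0.53 and -0.56 and so was lower by a like amount at every age. KGD2, the E2 enzyme, had the lowest ratios among the TCA cycle genes of the set at -0.94, -0.79 and -0.85. Its raw signals were unstable in both channels, with Cy5 at 257, 80.5 and 67.0 and Cy3 at 453, 126 and 98.8. Its 11th generation ratio was -2.17 after plain subtraction of the blank signal and -1.52 in the authors' deposited table. Its 11th minus 4th difference of 0.09 became -1.06 and -0.79 under the same alternatives, so that difference has no settled direction.

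The last steps of the cycle, those of FUM1 and MDH1, differed from each other. MDH1, the mitochondrial malate dehydrogenase, was at -0.19, -0.11 and 0.39, higher at the 11th generation than at both younger ages. FUM1, fumarase, was at -0.29, -0.25 and -0.36 with little difference between ages. CIT3, a mitochondrial citrate synthase that also acts on propionyl-CoA, belongs to the first step of the cycle. It was at 0.19, 0.22 and 0.70, from a dim probe with raw Cy5 signals of 49.9, 43.3 and 51.8. The 11th generation ratio of CIT3 was 1.22 after plain subtraction of the blank signal and 1.81 in the authors' deposited table. In that table it was also past 2-fold at the 4th and 7th generation, at 1.11 and 1.12. MDH1, CIT3 and LSC1 were chosen for description after their values were seen.

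Apart from CIT3, genes of the first steps of the cycle lie outside the set, and 3 of those shown here passed 2-fold upward at the 11th generation. CIT1, the main mitochondrial citrate synthase, was at 0.70, 0.62 and 1.61. IDH1, a subunit of the NAD-dependent isocitrate dehydrogenase, was at 0.48, 0.32 and 2.28 and so 4.85-fold higher at the 11th generation. The raw Cy3 signal of IDH1 was 2548, 2931 and 9717, against a Cy5 signal of 862, 1001 and 983. Its partner IDH2 was at 0.01, -0.06 and 1.22, but its 11th generation ratio was 0.84 with median centring and 0.34 in the authors' deposited table. ACO1, aconitase, was at -0.95, -0.75 and -0.10. IDH2 and ACO1 were added after their values were seen, to fill in the cycle. MPC3, a subunit of the mitochondrial pyruvate carrier, was at 0.73, 0.95 and 2.48. Of the 13 genes listed for pyruvate entry and the first steps, 6 passed 2-fold upward and 1 downward at the 11th generation, with a median of 0.17. The shares over all features were 5.75% and 3.84%. The median 11th minus 4th difference of the 13 listed genes was 0.56 and 10 of 13 were above 0, against 51.5% of all features. In the limma trend test 0 of 13 passed, against 0.541% of all features. At an unadjusted p under 0.05, 8 sloped upward and 1 downward, beside 17.2% and 13.1% of all features. The lists of related genes were, like the set, drawn up with results of these arrays known.

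**Figure D4:**
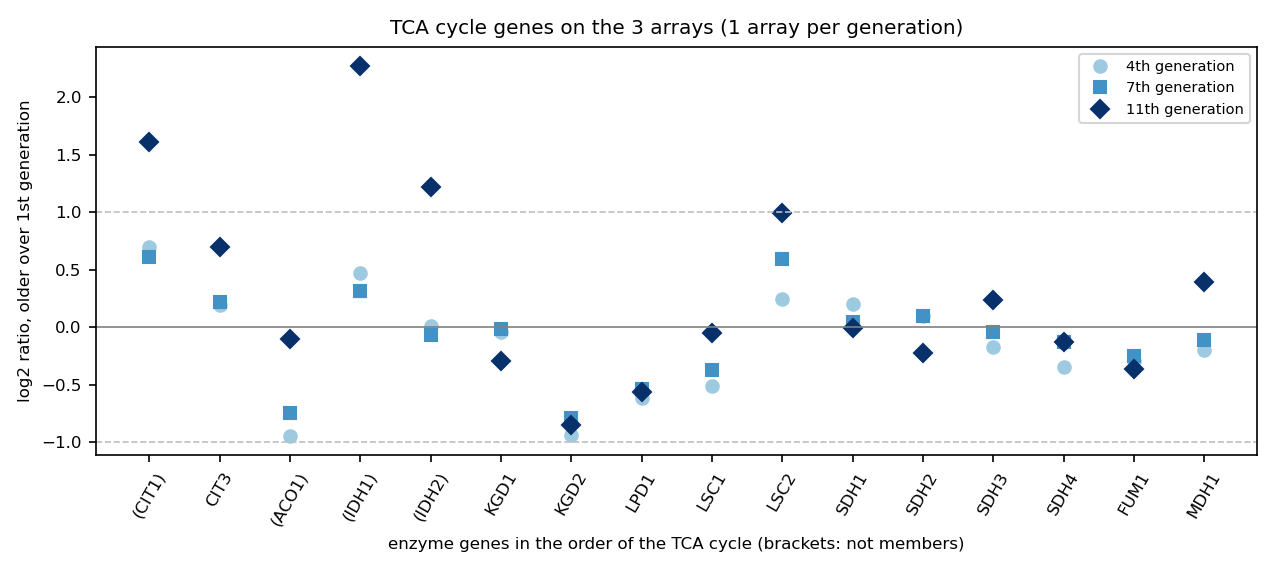
Log2 ratio of older over 1st generation signal (y axis) for enzyme genes in the order of the TCA cycle (x axis), with 1 mark per array and dashed lines at 2-fold. The marks past the upper line at the 11th generation belong to CIT1, IDH1 and IDH2, whereas from KGD1 on no gene of the set passes 2-fold.

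With normalisation within print blocks, NADH dehydrogenases had ratios above 0 where they were measured. NDE1, an external enzyme that oxidises cytosolic NADH, had the highest ratio of the whole set at the 4th generation, with 0.84, 0.71 and 0.46 along the series. Its raw Cy3 signal was 2469, 1837 and 1916 and its Cy5 signal 583, 452 and 469. Its limma slope was -0.055 per generation (95% interval -0.104 to -0.006, adjusted p = 0.14). NDI1, the internal enzyme that stands in for complex I, was at 0.14, 0.22 and 0.01, close to the 1st generation with this normalisation. The NDI1 ratios were 0.54, 0.55 and 0.14 with whole-array loess and 1.02, 1.12 and 0.55 in the authors' deposited table. After plain subtraction of the blank signal NDI1 was at -0.03 at the 11th generation. NDE2, the second external enzyme, had raw Cy5 signals of 28.7, 20.6 and 24.9, not above the blanks on any array, and its Cy3 signal was not above them at the 7th generation. Its ratios of 0.03 and 0.24 at the 4th and 11th generation therefore rest on faint signal, and no trend was tested for it.

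With normalisation within print blocks, complex II stood near the 1st generation throughout. This complex, succinate dehydrogenase, joins the cycle to the respiratory chain. SDH3, a membrane anchor subunit, was at -0.17, -0.04 and 0.24, and SDH2, the iron-sulfur subunit, went the opposite way at 0.10, 0.10 and -0.23. The other anchor subunit, SDH4, was at -0.34, -0.12 and -0.12. Under whole-array loess, median centring and in the authors' deposited table, the 11th generation ratios of SDH3 were 0.65, 0.91 and 0.62. Those of SDH2 were -0.60, -0.38 and -0.66, and those of SDH4 were 0.23, 0.49 and 0.12. SDH1, the flavoprotein, was at 0.20, 0.05 and -0.00, but its raw Cy5 signals of 31.7, 29.6 and 30.2 lay at the limit of the blanks, and at the 4th generation it was below that limit. Group medians were -0.04, 0.00 and -0.06, and 2 of 4 genes differed upward and 2 downward from the 4th to the 11th generation. None of the 3 genes listed as paralogs of complex II subunits passed 2-fold at the 11th generation.

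Complex III was the group with the lowest median at the 11th generation. Its medians were 0.01, 0.01 and -0.51 on the 3 arrays, so the difference arose between the 7th and the 11th generation, where the median step was -0.48. The core proteins and the redox subunits shared it. QCR2, a core protein, had log2 ratios of -0.53, -0.66 and -1.35. Its raw Cy3 signal was 1154, 1041 and 735 and its Cy5 signal 803, 779 and 791, which places the difference in the older cells, where the array median was highest at the 11th generation. That made it 2.55-fold lower than in the 1st generation, and the limma slope was -0.12 per generation (95% interval -0.18 to -0.06, adjusted p = 0.066).

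COR1, the other core protein, was at 0.04, 0.02 and -0.47. CYT1, cytochrome c1, was at 0.01, 0.04 and -0.78, with raw Cy3 signals of 474, 445 and 281 against Cy5 signals of 207, 187 and 192. RIP1, the Rieske iron-sulfur protein, was at 0.11, 0.01 and -0.55. With this normalisation all 3 thus lay within 0.11 of the 1st generation at the 4th and 7th generation and below it at the 11th. With whole-array loess the 4th and 7th generation ratios were -0.17 and -0.21 for COR1 and -0.33 and -0.32 for CYT1. For RIP1 they were -0.11 and -0.19. The limma adjusted p for a trend was 0.117 for COR1, 0.094 for CYT1 and 0.077 for RIP1. These genes, and the ones that follow apart from QCR9, were chosen for description after their values were seen.

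Small subunits of complex III were mixed. QCR6, the acidic hinge protein, was at -0.27, -0.32 and -0.80 and followed the core proteins. QCR10 was at -0.29, -0.31 and -0.51 and QCR8 at -0.03, -0.04 and -0.12. QCR7 was at 0.04, 0.02 and 0.17, and its 11th generation ratio was -0.23 in the authors' deposited table. QCR9, in contrast, was the highest of the group at 0.42, 0.39 and 0.72, with raw Cy3 signals of 1726, 1655 and 2305 and Cy5 signals of 403, 378 and 342. The complex was therefore not lower as a whole, and QCR9 and QCR2 lay 2.07 apart on the log2 scale at the 11th generation.

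Subunits of complex IV lay on both sides of the 1st generation. COX4, a subunit needed for assembly of the oxidase, was at -0.52, -0.76 and -1.13, lower at each later age on the array measured. Its raw Cy3 signal was 1359, 1115 and 957 and its raw Cy5 signal 952, 883 and 881. After background correction and relative to the array median, its 1st generation side differed by at most 1.01-fold. COX4 was 2.19-fold lower at the 11th generation, with a limma slope of -0.087 (95% interval -0.136 to -0.038, adjusted p = 0.071). COX6 was at -0.19, -0.33 and -0.42, but with median centring it was at 0.43, 0.29 and 0.17, so it has no settled direction.

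COX13, a peripheral subunit, was at -0.02, -0.13 and -0.93. Here the Cy5 signal was 1794, 1661 and 4188 and the Cy3 signal 3442, 3371 and 4057. The low 11th generation ratio of COX13 thus came with a 1st generation signal 2.51-fold apart between arrays after background correction. Its raw Cy3 signal was highest on the 11th generation array. On the higher side were COX8 at 0.23, 0.32 and 0.46, COX12 at 0.29, 0.36 and 0.41 and COX9 at -0.09, -0.05 and 0.29. COX7 was at -0.36, -0.39 and -0.28. The group median was -0.09, -0.13 and -0.28, but with median centring in place of loess the 11th generation median was above 0, so no direction is given for the complex.

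ATP synthase was the group with most genes on the higher side. The medians were -0.01, -0.06 and 0.28, and the step from the 7th to the 11th generation had a median of 0.39 with 11 of 12 genes above 0. The 2 large subunits of the catalytic head were at or below the 1st generation. ATP1, the alpha subunit, was at 0.02, -0.09 and -0.05, and ATP2, the catalytic beta subunit, at -0.44, -0.56 and -0.56. ATP3, the gamma subunit of the central stalk, was at 0.20, 0.12 and 0.24. The 2 other central stalk genes differed upward, ATP16 (delta) at -0.03, -0.03 and 0.35 and ATP15 (epsilon) at -0.40, -0.34 and 0.32.

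Of the peripheral stalk, ATP7 (subunit d) was at 0.22, 0.49 and 0.82, and its limma slope was 0.086 per generation (95% interval 0.037 to 0.134, adjusted p = 0.073). ATP4 (subunit b) was at 0.14, 0.11 and 0.67, with raw Cy3 signals of 3840, 3188 and 4919 and Cy5 signals of 1626, 1354 and 1291. ATP14 (subunit h) was at 0.11, 0.16 and 0.57. Among small membrane subunits, ATP17 (subunit f) was at -0.23, -0.23 and 0.22 and ATP20 (subunit g) at -0.19, -0.26 and 0.13. These subunits stood between 0.13 and 0.82 at the 11th generation. The 11th generation ratio of ATP20, the lowest of them, was -0.20 with whole-array loess, -0.01 with median centring and -0.46 in the authors' deposited table. ATP2, ATP5 and ATP18 were named by rule, and the other ATP synthase genes after their values were seen.

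ATP18 (subunit i/j), the highest of the group at the 11th generation, was at 0.15, 0.04 and 0.83. Its raw signals were 712, 251 and 654 in Cy5 and 1643, 602 and 2695 in Cy3. Both channels were thus lowest on the 7th generation array, though above the median of that array. ATP5, the oligomycin sensitivity protein at the top of the peripheral stalk, had the lowest ratio of the set, at -1.63, -0.20 and -0.06. Raw Cy5 signals of ATP5 were 2976, 448 and 1059, and its Cy3 signals 3199, 1550 and 4034. Its 3.09-fold lower level at the 4th generation therefore came with a Cy5 signal 5.90-fold apart between arrays after background correction. Without KGD2, COX13, ATP5 and ATP18, 0 genes passed 2-fold at the 4th generation and in the 11th minus 4th and 7th minus 4th differences. The median 11th minus 4th difference of the 10 remaining ATP synthase genes was then 0.41.

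The medians of complex III and ATP synthase kept their opposite signs under each way of processing tried. Over 7 alternatives the median 11th minus 4th difference stayed between -0.56 and -0.40 for complex III and between 0.33 and 0.51 for ATP synthase. The difference between the groups was not tested, since members of a complex are not replicates of a condition.

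**Figure D5:**
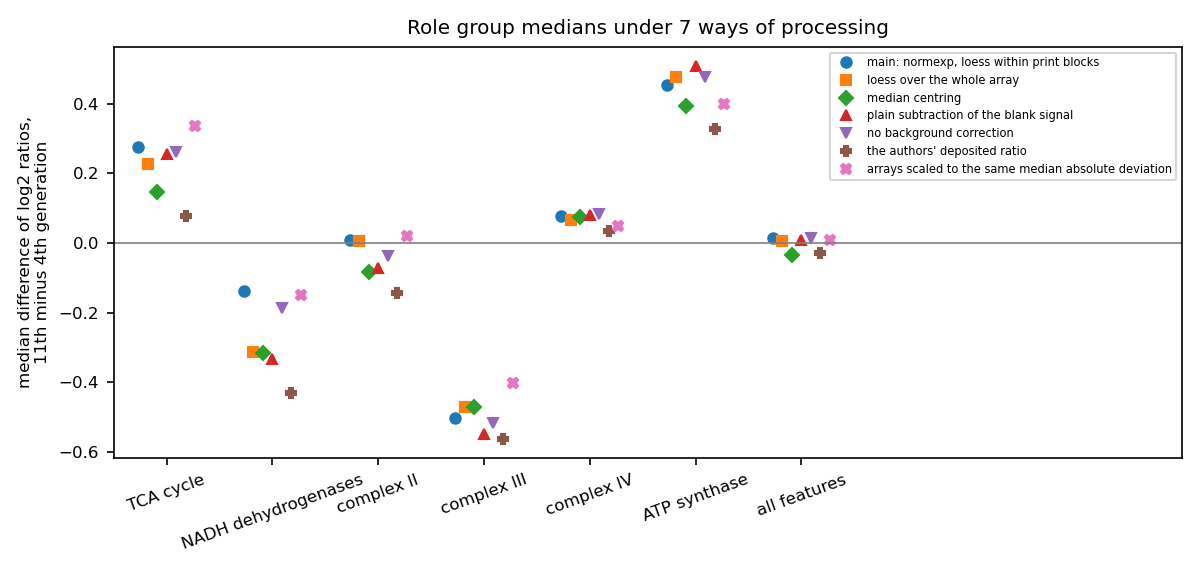
Median difference of log2 ratios, 11th minus 4th generation (y axis), for each role group and for all features (x axis), with 1 mark for each of 7 ways of processing. Complex III lies between -0.56 and -0.40 and ATP synthase between 0.33 and 0.51, while complex II lies on both sides of 0.

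Of 122 related genes in 10 lists outside the set, 120 were above the blanks at the 11th generation. Among these 12 were at least 2-fold higher and 5 lower, where the shares over all features were 5.75% and 3.84%. CYC1, the major cytochrome c that links complexes III and IV, was at -1.56, -1.30 and -2.21. Its raw Cy3 signal was 158, 177 and 106 against a Cy5 signal of 238, 210 and 223, a level 4.62-fold lower at the 11th generation. STF2, a factor that acts with the ATP synthase inhibitors, was at 0.91, 0.99 and 2.38, from a raw Cy3 signal of 1605, 1892 and 5821. The 15 further genes of ATP synthase subunits, inhibitors and assembly had a median of 0.36 at the 11th generation, with 3 at least 2-fold higher and 0 lower. INH1, the inhibitor protein itself, gave signal too near the blanks to be read, with raw Cy5 signals of 28.4, 24.9 and 28.4.

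HAP4, the regulated subunit of the Hap2/3/4/5 activator, was at -0.65, -0.72 and -0.04, and at 0.31 with whole-array loess at the 11th generation. The 5 HAP regulators had a median of 0.01 at the 11th generation, and 0 passed 2-fold. OAC1, the mitochondrial oxaloacetate carrier, was at -0.70, -1.23 and -1.65, the 1 carrier of 12 past 2-fold at the 11th generation. COX14, which acts in the synthesis and assembly of the Cox1 subunit, was at 0.46, 0.73 and 1.39, and COA2, another assembly factor of the oxidase, at -0.87, -0.61 and -1.14. Of 41 assembly and translation factors above the blanks, 2 were higher and 1 lower at the 11th generation, with a median of 0.23. COA3 rose by the limma trend test (adjusted p = 0.036) as the only gene of these lists. Its Cy5 signal was 2.07-fold apart between arrays after background correction. In coenzyme Q synthesis COQ7 at 1.02 was the 1 of 10 genes past 2-fold at the 11th generation, and the 8 genes of heme synthesis held none. Of 6 mitochondrially encoded genes above the blanks, COX1 at -1.05 was the 1 past it. Both were short of 2-fold in each of 3 alternatives, with COQ7 at 0.66, 0.93 and 0.65 and COX1 at -0.63, -0.41 and -0.87 under whole-array loess, median centring and in the authors' deposited table. COX14 was at 0.65 in the authors' deposited table.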

How the data were processed

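The 3 two-colour arrays set RNA of the 4th, 7th or 11th generation (Cy3) against the 1st (Cy5), per the labels. Per the file headers, each array file lists for every spot the raw intensity, the intensity after background subtraction and after global normalisation, and the ratio of Cy3 over Cy5 with its log2. The authors' deposited series table equals that log2 within 1e-06 for all values compared. The genome build behind the probes is not given in the sources used here, so no coordinates or sequences are printed.

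Raw intensities (6272 spots per array, 3 of them emptied for this work) were corrected by normexp with an offset of 50 and normalised by loess (span 0.3, 4 iterations) within each of 16 print blocks, control spots at weight 0, in limma 3.58.1 under R 4.3.3. Blocks were used because loess over the whole array left the even blocks 0.44 to 0.45 above the odd ones; the authors' deposited ratio has an offset of 0.79 to 0.83. The limit for signal was the mean plus 2 SD of 320 blank spots. Symbols were matched by systematic name to the RefSeq R64 gene table (5730 features, all 43 genes of the set). A trend with generation was fitted with lmFit and eBayes over 5546 features with Benjamini-Hochberg adjustment, after a check on simulated data. Tables and figures used Python 3.11.15, numpy 2.4.6, pandas 2.3.3 and matplotlib 3.10.9. The number of arrays limits the precision. A pooled test of older against 1st generation cells was not run.

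The set, the gene lists and the tests were chosen with earlier results of these data known. Named by rule were, of the set, the 17 genes past 2-fold or highest or lowest in their group at the 11th generation or in the 11th minus 4th difference, and of each list the 2 largest ratios at the 11th generation plus HAP4, CYC1, CIT1 and INH1; some of the latter stay unnamed. Alternatives were whole-array loess, median centring, scaled arrays, no background correction, plain subtraction of the blank signal, the authors' deposited ratio, both channels above background and, for the trend, log2 of generation and an intensity-dependent prior. Promoter motifs were not analysed here, and 1 gene of the lists is not reported here.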

Additional observations from a re-analysis of the deposited data

Results flagged for a closer look

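MDH1, ATP15 and ATP17 lay on opposite sides of the 1st generation at the 4th and the 11th generation, by more on each side than 0.17, the SD over features of the 7th minus 4th generation difference. The difference of log2 ratios, 11th minus 4th, was 0.59 for MDH1, 0.73 for ATP15 and 0.44 for ATP17. Each gene had 1 array per generation, and the limma trend over the 3 arrays gave adjusted p = 0.087 for MDH1, 0.079 for ATP15 and 0.14 for ATP17. The 4th generation ratio of -0.19 for MDH1 became 0.26 with loess over the whole array, and that of ATP17 went from -0.23 to 0.11. With median centring the 4th generation ratio of ATP15 went from -0.40 to 0.11. The change of side of these genes is therefore bound to the normalisation, while the 11th minus 4th differences stayed above 0 under the other ways of normalising.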

How the results depend on the processing

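Of the counts past 2-fold against the 1st generation, that at the 4th (1 gene) was 2 under plain subtraction and with scaled arrays and 9 in the authors' deposited ratio. That at the 7th (0 genes) was 1 with whole-array loess, median centring, plain subtraction or no background correction, and 8 in the authors' deposited ratio. That at the 11th (2 genes) was 7 with whole-array loess, median centring or plain subtraction, 4 with no background correction, 12 in the authors' deposited ratio and 1 with scaled arrays. The 11th minus 4th count (1 gene) was 2 with median centring and 4 under plain subtraction or in the authors' deposited ratio, and the 11th minus 7th count (0 genes) was 1, 1 and 2 under these 3. Leaving out the 4 genes with a moving 1st generation signal, an alternative chosen after seeing the data, gave 0 in place of 1 at the 4th generation and in the 11th minus 4th and 7th minus 4th differences. Genes past the limma trend test (0) became 1 with median centring, 5 with no background correction, 3 with scaled arrays and 1 when both channels had to be above background, LSC2 in the first and the last case. Related genes past 2-fold at the 11th generation (17) were 28 in the authors' deposited ratio. The cause of each shift was not tested. The 11th generation medians of complexes II and IV, COX6 and several small 4th generation ratios changed sign under some alternatives. So did the 11th minus 4th difference of KGD2, while its ratios against the 1st generation stayed below 0. No paired analysis was possible because each generation has 1 array. Dim probes and probes near the blanks, among them NDE2, SDH1, INH1, CIT3 and KGD2 at the later generations, have ratios that an offset of 50 shrinks by construction. Having 1 array per generation leaves every difference without a replicate error.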
